A study of Mus musculus with 6 samples.

Results

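Milk proteins and alveolar genes were followed in 4T1 cells, a carcinoma line from the mammary gland of BALB/c mice, in culture and after growth as a tumour in the gland. The 8 genes were chosen by name from genes of milk secretion and the alveolar cell, with earlier results of these data known: Trf, Lcn2, Ltf, Btn1a1, Csn3, Xdh, Muc1 and Elf5. Of these, 7 were among the 13912 genes of the deposited table, and Elf5 was not analysed here. The study compared 3 libraries of the cultured line, labelled 4T1-Luc2-RFP and strain balb/c, with 3 libraries of the same line sorted by fluorescence (FACS) from tumours in mammary glands, labelled MIND tumors. The series title calls the model intraductal. All 6 libraries thus carry the same luciferase and red fluorescent protein labels, sorting is named for the tumour libraries alone, and no age, treatment or time is given for the groups used here. Separate mice or cultures are not named for the replicate libraries, so p-values reflect how far these libraries spread, which can be technical.

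Alveolar cells of the mammary gland make milk under prolactin, which acts through its receptor, the kinase JAK2 and the transcription factors STAT5A and STAT5B, and which induces the lineage factor ELF5. Their products are caseins, whey and iron-binding proteins, and fat globules that leave the cell wrapped in its apical membrane. Butyrophilin (Btn1a1), xanthine oxidoreductase (Xdh) and mucin 1 (Muc1) are proteins of that membrane. Kappa-casein (Csn3) coats casein micelles and keeps them in solution. Transferrin (Trf) and lactoferrin (Ltf) bind iron, and lipocalin 2 (Lcn2) binds the iron carriers of bacteria. Several of these genes have other sources: Ltf and Lcn2 are also products of neutrophil granules, Trf is a main product of the liver, and Xdh also serves purine breakdown.

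The 6 libraries held 35448588 to 41469090 reads. Levels are log2 CPM, reads scaled to a common library total with 0.5 reads added, as the authors deposited them. Markers of mammary epithelium were present in both groups, with Krt18 at means of 9.77 in culture and 10.04 in the tumour libraries and Epcam at 6.63 and 6.82. The tumour libraries also held markers of host cells. Summed levels of 19 macrophage and monocyte markers, all listed genes, were 37.4 to 43.1 CPM in culture and 10385 to 14713 CPM in the tumour libraries, and 1 marker, Ms4a7, had 0 reads in culture. For 13 of 18 neutrophil markers they were 85.6 to 101 and 1419 to 4312 CPM, with 5 markers at 0 in culture (Ngp, Mmp8, Chil3, Cd177 and Retnlg). Mmp9 alone gave a mean of 91.5 CPM of the cultured sum, and the median log2 level of the list was -5.41 in culture and 4.36 in the tumour libraries. For 13 of 13 fibroblast markers they were 25.1 to 54.1 and 7252 to 9347 CPM, with Dpt at 0 in culture. For 11 of 11 dendritic cell markers they were 4.996 to 25.1 and 5563 to 7864 CPM, with Flt3, Clec9a and Cd209a at 0 in culture. For 11 of 11 endothelial markers they were 33.7 to 53.4 and 227 to 279 CPM, with Emcn and Cldn5 at 0. Eng alone gave a mean of 39.6 CPM of the cultured sum, and the median log2 level of the endothelial list was -3.74 and 3.33. Sums were, for 4 of 13 lymphocyte markers at most 0.0574 and 52.1 to 112 CPM, with Cd4 and Cd8a at 0. The 3 of 9 adipocyte markers summed to 8.66 to 13.4 and 24.1 to 30.2 CPM. Lipe alone gave a mean of 10.8 CPM of the cultured sum. The table holds no gene with fewer than 61 reads over the 6 libraries. Most host markers had fewer in culture, so they had to be higher in the tumour libraries. They were 14 of the 19 macrophage, 12 of the 13 neutrophil, 10 of the 13 fibroblast and 9 of the 11 dendritic cell markers. The same held for 9 of the 11 endothelial, 4 of the 4 lymphocyte and 2 of the 3 adipocyte markers. The lowest correlation between cultured libraries, taken over genes that are not independent of one another, was 0.968, and every pair within a group differed by more than read sampling. In bulk libraries fewer cells of a type and less RNA per cell cannot be told apart.

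Promoter sequence is shown for the 3 members that were higher in the tumour libraries and have a RefSeq window, Lcn2, Ltf and Muc1. Windows were found for 4 of the 8 genes. The bases shown run from position -250 to -61 relative to the RefSeq start site on GRCm38.p6, 5′ to 3′ on the strand of the gene. They lie at chr2:32387800-32387989 on the minus strand for Lcn2, chr9:111019042-111019231 on the plus strand for Ltf and chr3:89228806-89228995 on the plus strand for Muc1. In GENCODE M21 Lcn2 spans 32384633 to 32388252, so its window lies inside the gene, downstream of the outermost annotated start. The windows of Ltf and Muc1 lie upstream of their GENCODE starts. Capitals mark matches, on either strand, to a C/EBP motif (TTNNGCAA) or an ETS motif (AGGAAG), which do not overlap here. AGGAAG is a form of the site that ELF5 and its relatives bind, and their shorter core GGAA was not searched.
Lcn2: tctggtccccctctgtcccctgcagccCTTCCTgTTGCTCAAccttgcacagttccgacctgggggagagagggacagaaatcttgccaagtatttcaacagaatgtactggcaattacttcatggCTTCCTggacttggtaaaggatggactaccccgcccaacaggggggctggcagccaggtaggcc
Ltf: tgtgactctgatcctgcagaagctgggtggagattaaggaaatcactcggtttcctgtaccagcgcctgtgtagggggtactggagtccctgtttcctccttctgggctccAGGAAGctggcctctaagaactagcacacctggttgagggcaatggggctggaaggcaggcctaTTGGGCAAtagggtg
Muc1: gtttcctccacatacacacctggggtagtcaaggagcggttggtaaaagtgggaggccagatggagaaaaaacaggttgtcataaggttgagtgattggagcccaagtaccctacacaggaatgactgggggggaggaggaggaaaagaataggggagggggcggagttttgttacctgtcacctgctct
The Lcn2 window holds 1 C/EBP match and 2 ETS matches, and the Ltf window holds 1 of each. The Muc1 window holds none of the motifs searched. Among all 32851 RefSeq windows of this length, 7.77% hold the C/EBP motif and 22.7% the ETS motif AGGAAG. The STAT motif (TTCNNNGAA), held by 5.51% of windows, and the NF-kB motif, held by 5.42%, were found in none of the 3. These matches describe letters only.

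By limma with Benjamini-Hochberg adjustment at 0.05 over all genes, 5 of the 7 members were higher in the tumour libraries (Trf, Lcn2, Ltf, Xdh and Muc1), 1 was lower (Btn1a1) and 1 did not pass (Csn3). Over all genes, 48.2% were called in either direction, 29.5% higher and 18.8% lower, with a median change of 0.08 on the log2 scale. Groups did not overlap for the same 6 genes, which held for 34.6% of all genes in the upward and 25.2% in the downward direction. The table holds no gene with fewer than 61 reads over the 6 libraries. Trf and Ltf, with 10 and 3 reads in culture, are thus in it only through their tumour reads and had to be higher there. Btn1a1, with 33 tumour reads, is in it only through its cultured reads and had to be lower. These 3 genes add nothing to the counts, and the direction was free for Lcn2, Csn3, Xdh and Muc1, although the 68 cultured reads of Muc1 lie just above the smallest total.

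**Figure D1:**
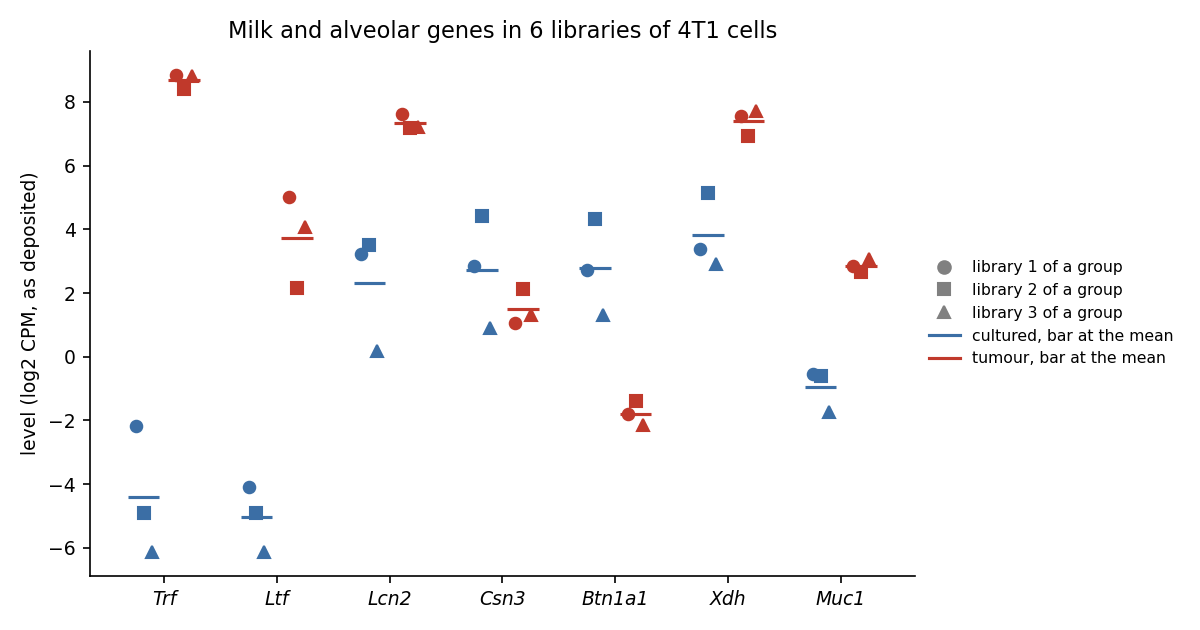
Level of each gene (vertical axis, log2 CPM as deposited) in the 3 cultured (blue) and 3 tumour libraries (red). Symbols mark the library number within a group and horizontal bars the group means. Tumour libraries lie above all cultured libraries for Trf, Ltf, Lcn2, Xdh and Muc1 and below them for Btn1a1, and the groups overlap for Csn3.

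Trf, the transferrin gene, went from almost no reads to a high level. It lies on chromosome 9 from 103204001 to 103230444 of GRCm38 (minus strand). Cultured libraries 1, 2 and 3 held 9, 1 and 0 of its reads, and tumour libraries 1, 2 and 3 held 17078, 13749 and 16961. The tumour libraries stood at 463, 338 and 447 CPM, a narrow range, while the cultured ones were near 0. Over the summed reads the ratio of CPM was 5082 (95% counting interval 2763 to 10598, which covers counting error only, as reads are not independent molecules). On the log2 scale the change was 13.09 (SE 0.89, limma adjusted p = 1.19e-05), and 11.36 with 4 reads added in place of 0.5. In GENCODE M21, 63.5% of the exon bases of Trf are shared with Gm20425, a gene on the same strand. Reads on the shared bases could be divided between the 2 names or left uncounted, and Gm20425 is not in the table used here.

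Ltf lies on the same chromosome, from 111019271 to 111042767 (plus strand), and encodes a protein of the transferrin family that is found in milk and in neutrophil granules. It had 2, 1 and 0 reads in the cultured libraries. The tumour libraries had 1183, 180 and 633 reads, or 32.1, 4.43 and 16.7 CPM. Tumour library 1 was thus 7.24 times library 2, the widest range of any member in the tumour group. The ratio of CPM over 3 cultured reads was 708 (95% counting interval 242 to 3434). The log2 change was 8.78 (SE 0.81, limma adjusted p = 6.75e-05).

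Lcn2 is a short gene on chromosome 2 from 32384633 to 32388252 (minus strand). It had 402, 513 and 39 reads in culture, or 9.43, 11.3 and 1.12 CPM. The tumour libraries had 7305, 5895 and 5667 reads, or 198, 145 and 149 CPM. All tumour libraries were far above the highest cultured one, and cultured library 3 was well below the other cultured libraries. The log2 change was 5.04 (SE 0.79, limma adjusted p = 0.00136). Without cultured library 3 it was 3.97 (SE 0.18).

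These 3 genes differed among the tumour libraries in different ways. Ltf stood at 5.004, 2.15 and 4.06 log2 CPM in tumour libraries 1, 2 and 3, and the median of the 13 neutrophil markers at 5.89, 2.09 and 4.81. Lcn2 stood at 7.63, 7.18 and 7.22, so library 2 was level with library 3. Trf stood at 8.86, 8.40 and 8.81, and the median of the macrophage markers at 8.53, 8.02 and 8.73. Fibroblast markers stood at 6.05, 6.28 and 6.68 and mammary epithelium markers at 7.33, 7.17 and 7.29. The part of host cells in the rise of any member was not tested. Tumour library 2 was the lowest of its group for 5 of the 7 members, against 39.2% of all genes.

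**Figure D2:**
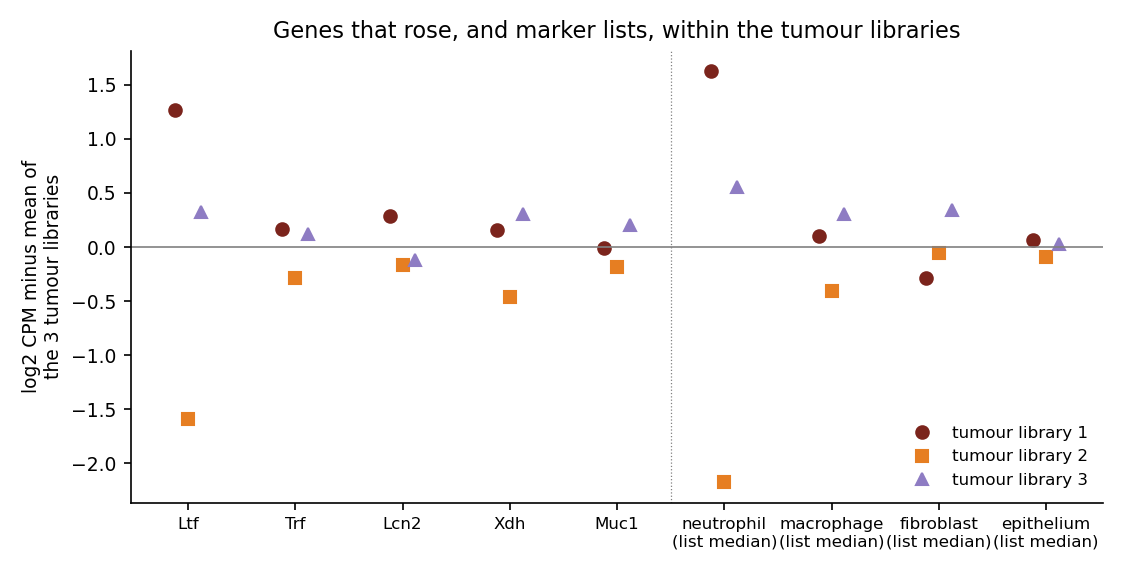
Level of 5 genes that rose, and the median of 4 marker lists, in each tumour library, as the difference in log2 CPM from the mean of the 3 tumour libraries (vertical axis). Colours and symbols mark libraries. Ltf and the neutrophil list spread widely, with library 2 lowest, while Trf, Lcn2, Xdh and Muc1 stay within 0.50 of their means.

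Csn3, the kappa-casein gene on chromosome 5 from 87925579 to 87932665 (plus strand), was the only member whose groups overlapped. It had 309, 976 and 65 reads in culture, or 7.25, 21.6 and 1.87 CPM. In the tumour libraries it had 76, 178 and 93 reads, or 2.06, 4.38 and 2.45 CPM, all within the cultured range. The log2 change was -1.24 (SE 0.81, limma adjusted p = 0.243), with a 95% interval from -3.12 to 0.65, so neither a several-fold fall nor no change is outside it. Which cultured libraries enter decides the call. Without cultured library 3 the change was -2.15 (limma adjusted p = 0.0119), and without cultured library 2 it was -0.39 (limma adjusted p = 0.644). Of the casein genes and the whey genes Wap and Lalba listed with it, only Csn3 was in the table, and the others were not analysed here.

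Btn1a1, the butyrophilin gene on chromosome 13 from 23456992 to 23465901 (minus strand), was lower in the tumour libraries. It had 282, 901 and 86 reads in culture, or 6.62, 19.9 and 2.47 CPM. The tumour libraries had 10, 15 and 8 reads, or 0.271, 0.369 and 0.211 CPM, all below the lowest cultured library. The log2 change was -4.57 (SE 0.71, limma adjusted p = 0.00123), and it was -7.32 after quantile normalization. Its neighbour and relative Btn2a2, 11775 bases away, was at means of -0.44 in culture and -2.68 in the tumour libraries and did not pass (change -2.24, SE 0.93, limma adjusted p = 0.0811). With 20 tumour reads it too is in the table only through its cultured reads.

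The level of Btn1a1 relative to Csn3 was lower in the tumour libraries than in culture. The log2 level of Btn1a1 minus that of Csn3 was -0.13, -0.12 and 0.40 in the cultured libraries and -2.87, -3.53 and -3.46 in the tumour libraries. The groups of differences did not overlap, with means of 0.05 ± 0.30 and -3.28 ± 0.36 (SD, n = 3; exact permutation test, two-sided, p = 0.1, the smallest that 3 libraries against 3 allow). This pair was chosen after its values were seen, and the levels are not corrected for gene length, which cancels in the comparison between groups. Btn1a1 is in the table only through its cultured reads and had to be lower, while the direction of Csn3 was free. A fall of the difference was thus favoured in advance, and the test decides nothing about it.

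Xdh and Muc1, which also belong to the milk fat globule membrane, rose. Xdh, on chromosome 17 from 73883895 to 73950196 (minus strand), had 446, 1595 and 263 reads in culture, or 10.5, 35.2 and 7.55 CPM. The tumour libraries had 6920, 4991 and 7908 reads, or 188, 123 and 209 CPM, each above every cultured library. The log2 change was 3.58 (SE 0.54, limma adjusted p = 0.00102). Muc1, on chromosome 3 from 89229057 to 89233381 (plus strand), had 29, 29 and 10 reads in culture, or 0.680, 0.640 and 0.287 CPM. The tumour libraries had 264, 258 and 315 reads, or 7.16, 6.35 and 8.31 CPM, again without overlap. The log2 change was 3.82 (SE 0.40, limma adjusted p = 0.000134), and it was 1.91 after quantile normalization.

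**Figure D3:**
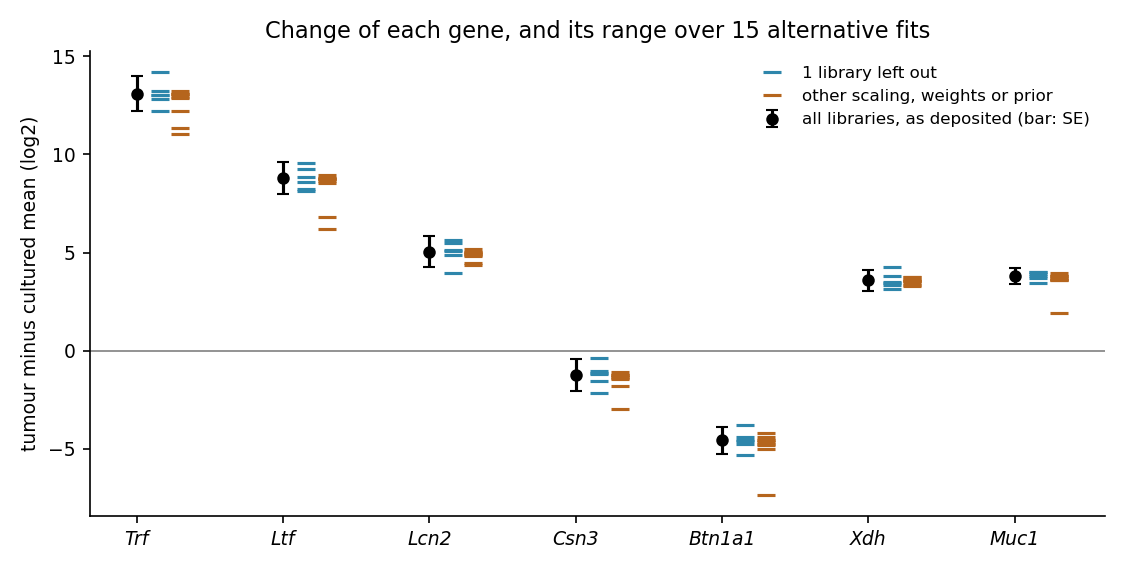
Change of each gene (vertical axis, tumour mean minus cultured mean, log2) in the fit of all libraries, with limma's standard error (black), with 1 library left out (blue) and under other scalings, weights, filters or prior reads (brown). Each gene keeps its sign throughout, and Csn3 reaches from -2.98 to -0.39.

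The order of the members differed between the groups when levels were set per kilobase of exon, from the union of annotated exons. In the tumour libraries Trf was highest at 125 ± 20.5 CPM per kilobase (SD, n = 3), then Lcn2 at 62.6 ± 11.2 and Xdh at 18.9 ± 4.87. Ltf at 5.14 ± 4.02 and Muc1 at 3.10 ± 0.42 overlapped, and Csn3 at 0.714 ± 0.299 and Btn1a1 at 0.0689 ± 0.0194 were lowest. In culture Lcn2 at 2.78 ± 2.07, Csn3 at 2.46 ± 2.45, Btn1a1 at 2.35 ± 2.21 and Xdh at 1.93 ± 1.66 CPM per kilobase did not differ beyond their spread. Muc1 at 0.228 ± 0.0923, Trf at 0.0234 ± 0.0350 and Ltf at 0.00667 ± 0.00680 lay below them.

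The cultured libraries differed from one another for these genes more than for most. The standard deviation (SD) of the 3 cultured log2 values was 2.03 for Trf, 1.85 for Lcn2, 1.76 for Csn3, 1.502 for Btn1a1, 1.17 for Xdh, 1.02 for Ltf and 0.67 for Muc1. The median over all genes was 0.36, and 10.2% of genes had an SD above 1. Lcn2, Csn3, Btn1a1 and Xdh were above 98.4%, 98.2%, 96.6% and 93.0% of genes. For these 4 genes read sampling alone would give an SD of 0.05 to 0.08, so their spread was not set by depth. For Ltf sampling gives 1.02, as much as was measured, and for Trf 0.84, so the spread of these genes with few reads cannot be read. Between the tumour libraries the SD was smaller for 6 of the 7 members, which held for 81.1% of all genes, and larger for Ltf, at 1.45.

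**Figure D4:**
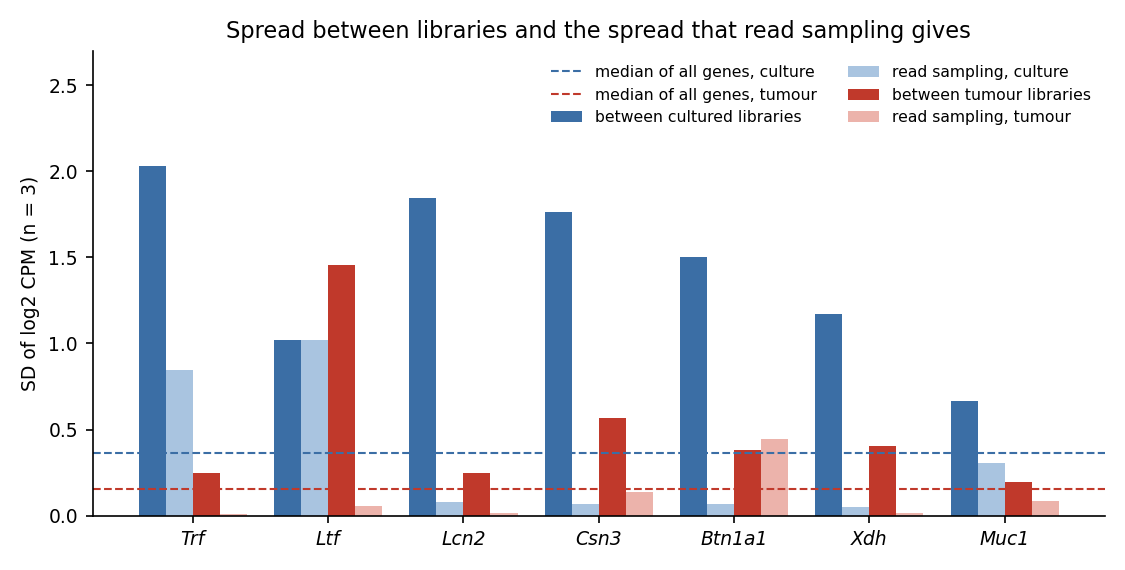
Standard deviation of log2 CPM over 3 libraries (vertical axis) between cultured (dark blue) and tumour libraries (dark red), beside the SD that read sampling gives at the same depth (pale bars). Dashed lines are medians over all genes. Lcn2, Csn3, Btn1a1 and Xdh stand far above sampling in culture.

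Cultured library 3 had the lowest log2 level of its group for 7 of the 7 members, against 37.9% of all genes, although for Trf and Ltf this rests on 0 to 9 reads. This library also stood apart over all genes, with 1002 genes at 0 reads against 820 and 770 in libraries 1 and 2. Without it 7926 genes were called, against 6711 with all libraries. It was lowest for 9 of 14 genes that induce Lcn2 or are made with it, 4 of 8 epithelium markers and 3 of 19 milk lipid synthesis genes. Cultured library 2 was the highest of its group for 4 of the 7 members, against 31.8% of all genes. Levels stood highest in library 2, next in 1 and lowest in 3 for Lcn2, Csn3, Btn1a1 and Xdh, 4 of the 7, against 20.9% of all genes. The CPM of cultured library 2 was 11.6 times that of library 3 for Csn3, 10.1 times for Lcn2, 8.06 times for Btn1a1 and 4.67 times for Xdh. Among other milk genes the cultured SD was 0.12 for Slpi, 0.25 for Mfge8, 0.57 for Spp1, 0.72 for Cp and 1.91 for Cidea. The summed level of 19 milk lipid synthesis genes went the other way, at 2711, 1794 and 5233 CPM in cultured libraries 1, 2 and 3.

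For each member the genes with the most similar pattern were found by the root mean square difference of log2 values over the 6 libraries, each gene centred on its mean. For Lcn2 these were AA467197, Rsad2, an interferon-induced antiviral gene, and C1rl, with differences of 0.20, 0.21 and 0.23. For Ltf they were Hp, which encodes haptoglobin, the chemokine gene Ccl4 and Slfn2 (0.53, 0.54 and 0.57), and for Trf H2-Ea-ps, the chemokine receptor gene Ccr1 and Emb (0.46, 0.47 and 0.64). The cultured values of Ltf and Trf rest on 0 to 9 reads. Their matches thus rest on the tumour values and on a rise whose direction the table's smallest total fixed. For Csn3 they were Gli1, a transcription factor of hedgehog signalling, Lims2 and the linker histone gene H1f0 (0.36, 0.36 and 0.39). H1f0 stood at 11.46, 12.13 and 8.998 in the cultured libraries, with the same order of libraries as Csn3. For Btn1a1 they were Tmprss11f, Fam71f1 and Tmem74 (0.57, 0.62 and 0.69), for Xdh Arsg, Cyp4v3 and Pnrc1 (0.19, 0.22 and 0.25), and for Muc1 Gprc5b and Ido2 (0.13 and 0.16).

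Genes next to the members were compared within 100000 bases on either side. Ccrl2, a chemokine-binding receptor gene 11719 bases from Ltf, had a change of 10.51 (SE 0.70). The neighbour of Trf at 1864 bases, Srprb, did not pass (change -0.34, SE 0.16), nor did Trim46, 796 bases from Muc1 (0.01, SE 0.46). Thbs3, 2220 bases from Muc1, had a change of 0.87 (SE 0.20). Around Lcn2, 3 of 8 neighbours rose, 1 fell and 4 did not pass, where 29.5% of all genes rose and 18.8% fell.

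Milk protein genes beside the members were compared next. Of 20 listed, 10 were in the table, of which 5 are members. Of the other 5, Spp1, Slpi, Wfdc18 and Cp were higher, and Mfge8, a globule membrane protein, did not pass (change -0.29, SE 0.17). Spp1, which encodes osteopontin of milk and of macrophages, rose from 167 ± 58.0 to 4221 ± 406 CPM (SD, n = 3). Slpi, a protease inhibitor of secretions, had a change of 3.52 (SE 0.15), and Cp, the copper protein ceruloplasmin, one of 2.52 (SE 0.33). Wfdc18 was at 0 reads in culture, so it was at least 25.2-fold higher in the tumour libraries (floor of 3 reads, taken over the cultured group). Of the 10 genes, 80% rose and 0 fell, against 29.5% and 18.8% of all genes. Wfdc18, Trf and Ltf are in the table only through their tumour reads. Of the other 7 genes, the members Lcn2, Csn3 and Muc1 included, 5 rose, 0 fell and 2 did not pass.

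Counts for genes of the fat globule and of milk lipid synthesis were mixed. With members included, 33.3% of 9 globule genes rose and 11.1% fell, against 29.5% and 18.8% of all genes. Of the 6 whose direction was free, Xdh and Muc1 among them, 2 rose, 0 fell and 4 did not pass. Of 6 globule genes in the table beside the members, 1 was higher, Cd36, a fatty acid carrier also found on macrophages and endothelium. Cd36 was at 0 reads in culture and at least 599-fold higher in the tumour libraries. Plin2, Plin3 and Rab18 of the lipid droplet, Cidea and Mfge8 did not pass. Cidea stood at means of -0.92 and -2.77, with a cultured SD of 1.91. Cd36 is in the table only through its tumour reads, and Btn1a1 and Cidea only through their cultured reads. Of 19 lipid synthesis genes, 2 (10.5%) rose, 5 (26.3%) fell and 12 did not pass, with a median of -0.04. Dgat1, the last enzyme of triglyceride synthesis, had a change of 0.90 (SE 0.25), Acaca, the first of fatty acid synthesis, one of -0.86 (SE 0.17), and Scd1, a desaturase, one of -0.84 (SE 0.25). Lpl, which frees fatty acids from blood lipids, had a ratio of 1413 (95% counting interval 391 to 11676) over 2 cultured reads, and is in the table only through its tumour reads. The count of 5 that fell was 2 without tumour library 1, 1 without tumour library 3 and 0 with libraries scaled to epithelial markers. The count of 2 that rose was 4 without cultured library 3, 5 with library weights and 1 without tumour library 1 or 3.

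Of 16 genes of the prolactin and STAT5 axis, 10 (62.5%) rose, 2 (12.5%) fell and 4 did not pass. Over all genes, 29.5% rose and 18.8% fell. Prlr and Tnfsf11 are in the table only through their tumour reads, and of the other 14 genes 8 rose. Prlr, the prolactin receptor, had 0 reads in culture and 118 in the tumour libraries, at least 41.8-fold higher. Socs3, a feedback inhibitor of cytokine receptors, had a change of 4.65 (SE 0.36) and Id2, a regulator of alveolar differentiation, one of 3.85 (SE 0.59). Tnfsf11, which encodes the cytokine RANKL, had a ratio of 145 (95% counting interval 25.5 to 5754) over 1 cultured read. Chosen after their values were seen, Jak2, Stat5a and the STAT5 target Cish had changes of 2.17 (SE 0.19), 1.14 (SE 0.25) and 2.26 (SE 0.29), while Stat5b did not pass (-0.26, SE 0.20). The 2 that fell, Nfib and Cav1, had changes of -1.27 and -0.93, and the count of fallen genes was 4 without cultured library 3 or with library weights.

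Of 22 luminal and alveolar lineage genes, 7 (31.8%) rose, 4 (18.2%) fell and 11 did not pass, shares near those of all genes (29.5% and 18.8%). Kit, Aldh1a3 and Prom1 are in the table only through their tumour reads and Ehf only through its cultured reads, and of the other 18 genes 4 rose and 4 fell. Those with the largest changes were Kit, a marker of luminal progenitors, Prom1, Aldh1a3 and Cd14. Kit had a ratio of 942 (95% counting interval 169 to 37255) over 1 cultured read and Prom1 one of 80.8 (22.0 to 673) over 2. Aldh1a3 and Cd14 had changes of 6.25 (SE 0.51) and 6.21 (SE 0.33). Cd14 is also a macrophage marker. Of the 8 genes of the epithelium list, Cdh1 and Cldn3 fell and 6 did not pass. The count of 2 was 1 without cultured library 1 or 2 or tumour library 1 or 3 and 4 after quantile normalization, and 1 gene rose without cultured library 3 or with library weights. The 9 basal and myoepithelial genes in the table were all higher, but Acta2, Myh11, Cnn1 and Lgals7 are in it only through their tumour reads, which leaves 5 that rose of 5. Values were largest for Acta2, Cnn1 and Tagln, with changes of 11.32, 7.22 and 7.54, contractile genes that fibroblasts and pericytes also use, and Myh11 with a ratio of 537 (95.9 to 21252) over 1 cultured read. Of 10 ETS factors of epithelia, 2 rose, Ets2 (2.10, SE 0.30) and Etv6 (0.82, SE 0.17), and 6 did not pass. The 2 that fell were Ets1 (-1.88, SE 0.22) and Elf3 (-1.49, SE 0.34). These shares were 20% each way, against 29.5% higher and 18.8% lower over all genes.

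Partners of the iron-binding members, which carry, take up or store iron or bind lipocalin, were compared next. Of 13 genes, 9 (69.2%) rose and 2 (15.4%) fell, against 29.5% and 18.8% of all genes. Slc22a17 and Tfr2 are in the table only through their tumour reads, and of the other 11 genes 7 rose. Slc22a17, a receptor of lipocalin 2, was at 0 cultured reads and at least 87.2-fold higher, and Slc40a1, the iron exporter, and Hfe, a regulator of iron uptake, had changes of 3.44 (SE 0.56) and 3.35 (SE 0.38). Tfr2 had a ratio of 54.8 (95% counting interval 14.8 to 458) over 2 cultured reads. The 2 that fell were Tfrc, the transferrin receptor of most cells (-1.38, SE 0.38), and the iron importer Slc11a2 (-0.85, SE 0.20). The count of 2 was 4 with plain library totals or medians, 1 without tumour library 2 or 3 and 0 with libraries scaled to epithelial markers. Fth1 and Ftl1, the subunits of the iron store ferritin, had changes of 1.41 (SE 0.29) and 0.83 (SE 0.20).

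Of 14 genes that induce Lcn2 or are made with it, 12 (85.7%) rose and 0 fell. Over all genes, 29.5% rose and 18.8% fell. Il6 and Hp are in the table only through their tumour reads, and of the other 12 genes 10 rose. The largest changes were those of the cytokine genes Il1b (10.38, SE 0.59) and Il6 (9.48, SE 0.90) and of the acute phase genes Hp (9.79, SE 0.84) and Saa3 (6.20, SE 1.38). The NF-kB subunit genes Nfkb1 and Rela did not pass. Of 12 genes of purine breakdown, Xdh included, 6 (50%) rose, 0 fell and 6 did not pass. Gda and Uox are in the table only through their tumour reads, and of the other 10 genes 4 rose. Gda, a guanine deaminase, had a change of 12.19 (SE 0.76), Uox, the uricase that acts after xanthine oxidoreductase, one of 6.94 (SE 0.71), and Aox1, an aldehyde oxidase related to Xdh, one of 2.55 (SE 0.41). Of 11 mucins, Muc1 and Muc2 were in the table, and Muc2, a secreted mucin of the gut, rose from a mean of -2.89 to -0.69 log2 CPM (limma adjusted p = 0.00519), but after quantile normalization it was among the genes that fell. A filter on group means of at least 1 removed it, and with 16 cultured reads it is in the table only through its tumour reads.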

How the data were processed

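RNA of 6 libraries (3 cultured, 3 tumour) was sequenced from total RNA with a TruSeq kit, per the labels' protocols. The strand setting is not given in the sources used here. The submitters' processing notes name HISAT, HTSeq, limma and mm10, without versions. The authors deposited log2 CPM in the form of limma's voom function with TMM scaling. Solving that form gave whole reads in 100% of cells, within 0.01, so depth is known, and reads, CPM and counting intervals come from that solution. The smallest total of a gene in the table is 61 reads.

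Groups were compared by limma 3.58.1 (R 4.3.3) on the deposited log2 values of all 13912 genes, with a variance trend, two-sided, with Benjamini-Hochberg adjustment. The fit was tested on simulated reads that gave both groups the same spread. In these libraries the cultured SD was larger for 81.1% of all genes, so that test does not cover unequal spread. A change is the difference of group means of log2 values and can misstate folds of genes with few reads, in either direction. Count models were not run because the unit is log2. Members and lists were chosen with earlier results of these data known. Named genes are the members, all milk protein, globule, butyrophilin and mucin genes in the table, up to 4 called genes with the largest change of each other pathway list (where none passed, the 2 of highest mean), and the 3 nearest patterns among genes with a mean of at least 0, predicted names left out. Of these genes 1 is not reported here. Marker lists are given by summed levels, and other genes named were chosen after their values were seen. Positions are from GENCODE M21 (GRCm38, the assembly of mm10).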

Additional observations from a re-analysis of the deposited data

How the results depend on the processing

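Over 15 alternatives (library scaling, precision and library weights, no variance trend, 4 reads added, a filter on group means, each library left out), Trf, Lcn2, Ltf, Xdh and Muc1 were higher and Btn1a1 lower, past the threshold in each. For Trf, Ltf and Btn1a1 the table's smallest total fixed that direction, so it is no sign of stability. Changes ranged from 11.02 to 14.21 for Trf, 3.97 to 5.63 for Lcn2, 6.21 to 9.58 for Ltf, 3.14 to 4.25 for Xdh, 1.91 to 4.03 for Muc1 and -7.32 to -3.81 for Btn1a1. Csn3 kept its sign, from -2.98 to -0.39, and passed in 3: after quantile normalization (-2.98, limma adjusted p = 0.00551), with library weights (-1.78, 0.0128) and without cultured library 3. Leaving out 1 library gave -2.15 to -0.39, and adjusted p over the 15 ran from 0.00551 to 0.644. The cause was not tested.

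Over all genes 2612 were lower. The number was 5513 after quantile normalization, 1399 scaled to epithelial markers and 1520 to 3301 with 1 library left out (1558 without tumour library 1, 1520 without tumour library 3). The share of calls that were higher was 61.1%, and 48.1% with medians centred, 35.2% after quantile normalization, 52.3% with plain totals and 75.1% scaled to epithelial markers. The median change of all genes, 0.08, was then -0.14, -0.32, -0.07 and 0.24. Fallen butyrophilins numbered 2, Btn2a2 included, after quantile normalization, with library weights or without cultured library 3. Fallen luminal genes numbered 8 after quantile normalization. No paired analysis was possible because the labels give the groups no shared replicate numbers. Depth limits the cultured levels of Trf and Ltf and the tumour level of Btn1a1.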
